A study of Mus musculus with 8 samples.

Results

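The proteasome genes of the liver were compared between 4 SIRT7 KO mice and 4 WT mice by array hybridisation of total RNA. They are the genes whose symbol is Psma, Psmb, Psmc, Psmd, Psme or Psmf followed by a number, without the immunoproteasome genes Psmb8, Psmb9 and Psmb10 and the interferon-inducible activator gene Psme1. The array covered 38 such genes with 74 probe sets that were annotated to a single gene, out of 12393 genes that had a single-gene probe set. Each gene was represented by its brightest probe set, a rule that does not use the genotype. The related genes Psmb11 and Psme2 were not analysed here, because no probe set was annotated to either of them alone.

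The proteasome is the main protease of the cytosol and nucleus, and it degrades proteins that carry ubiquitin chains. Its core particle is a barrel of α and β rings, in which the β subunits Psmb5, Psmb6 and Psmb7 carry the active sites. The regulatory particle caps the barrel. Its lid and base receive the ubiquitylated protein, remove the ubiquitin chain, unfold the protein by a ring of ATPases and pass it into the core. In mammalian cells the genes of these subunits are induced together when proteasome capacity falls short, by the transcription factor NFE2L1. The liver, which makes most plasma proteins, also uses the proteasome to clear misfolded proteins exported from the endoplasmic reticulum (ER).

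SIRT7 is a histone deacetylase, and the study uses mice without it as a model of spontaneous fatty liver with ER stress. The groups were livers of SIRT7 KO mice and livers of WT mice, with 1 array for each mouse, and the labels name no treatment, no further allele and no tissue-restricted deletion for either group. The study speaks of WT littermates, and no source used here ties an age, a sex, a litter or a hybridisation batch to each array. The comparison addressed whether loss of SIRT7 went with a change in the transcripts of the proteasome.

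The labels were checked on Sirt7 itself, which had log2 expression of 4.73, 4.53, 4.40 and 4.90 on the SIRT7 KO arrays and 8.98, 8.97, 8.88 and 8.57 on the WT arrays. Array medians were between 6.30 and 6.36, arrays of the same genotype correlated with a median r between 0.990 and 0.994, and no pair of arrays was identical. On the leading principal component (28.0% of the variance) WT array 4 was at -34.5 and the rest of the WT group between -11.2 and -2.10. SIRT7 KO arrays 1 and 2 (23.9 and 20.0) were also away from SIRT7 KO arrays 3 and 4 (5.80 and 4.89) on it. The next component (22.6%) placed SIRT7 KO arrays 3 and 4 (-24.4 and -19.4) away from SIRT7 KO arrays 1 and 2 (5.01 and 1.52). The GAPDH 3′ minus 5′ difference, a sign of RNA integrity, averaged 0.107 ± 0.082 on SIRT7 KO arrays and 0.223 ± 0.055 on WT arrays (SD, n = 4 each), with an exact permutation p of 0.0286, the smallest that 4 against 4 arrays allow. The spike-in controls averaged 8.52 ± 0.098 on SIRT7 KO arrays and 8.68 ± 0.063 on WT arrays (SD, n = 4 each; exact permutation p = 0.0286). The mean of 5 hepatocyte marker genes was between 14.18 and 14.30 on the SIRT7 KO arrays and between 14.28 and 14.40 on the WT arrays. All 5 had a difference below 0, from -0.27 (Hnf4a) to -0.00010 (Alb), and 0 were called. The part of RNA integrity, of the spike-in levels and of hepatocyte content in the differences below was not tested.

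The proteasome genes differed little between the genotypes. Of the 38 genes, 1 was called higher in SIRT7 KO livers (Psmd14, which encodes the deubiquitylating enzyme of the lid) and 0 were called lower by limma at an adjusted p below 0.15, which is the threshold of the study's methods. Among all 12393 genes, 2.17% were called higher and 2.48% lower, or 4.65% in either direction. The share of proteasome genes called higher was 2.63%, near this background. At an unadjusted p under 0.05, 5 proteasome genes were higher and 1 was lower, against 6.91% higher and 8.72% lower among all genes. The median difference (SIRT7 KO minus WT, log2) of the 38 genes was 0.056, against -0.0031 over all genes and -0.032 over genes above the median brightness of the array. The differences ran from -0.47 to 0.34.

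The intervals bounded these differences closely. The 95% interval of the difference lay within a 1.5-fold change in either direction for 37 of the 38 genes (97.4%), and Psma8 was the exception. The same held for 87.3% of all genes and 83% of genes above the median brightness. Variation within a genotype was small for these genes, with a median SD of 0.101 among SIRT7 KO arrays and 0.094 among WT arrays, against 0.122 and 0.129 over all genes.

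The signs of the differences were uneven. The difference was above 0 for 28 of the 38 genes (73.7%), against 49.3% of all genes and 42.2% of genes above the median brightness. This count depended on the arrays used. Dropping 1 array at a time moved it between 22 (SIRT7 KO array 1 dropped) and 31 (SIRT7 KO array 3 dropped). The 4 SIRT7 KO values lay wholly above the 4 WT values for 5 genes (13.2%), namely Psmd14, Psmc4, Psmd8, Psma5 and Psma1, against 4.10% of all genes. By its brightest probe set, no proteasome gene had its SIRT7 KO values wholly below the WT values, against 5.70% of all genes. Over all 74 probe sets of these genes, 6 (8.11%) lay wholly above and 1 (1.35%), a dim probe set of Psmf1, wholly below. The members share arrays and are not independent observations, so no test was made over them. The median difference was 0.019 without SIRT7 KO array 1 and 0.033 without WT array 4, against 0.056 with all arrays.

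**Figure D1:**
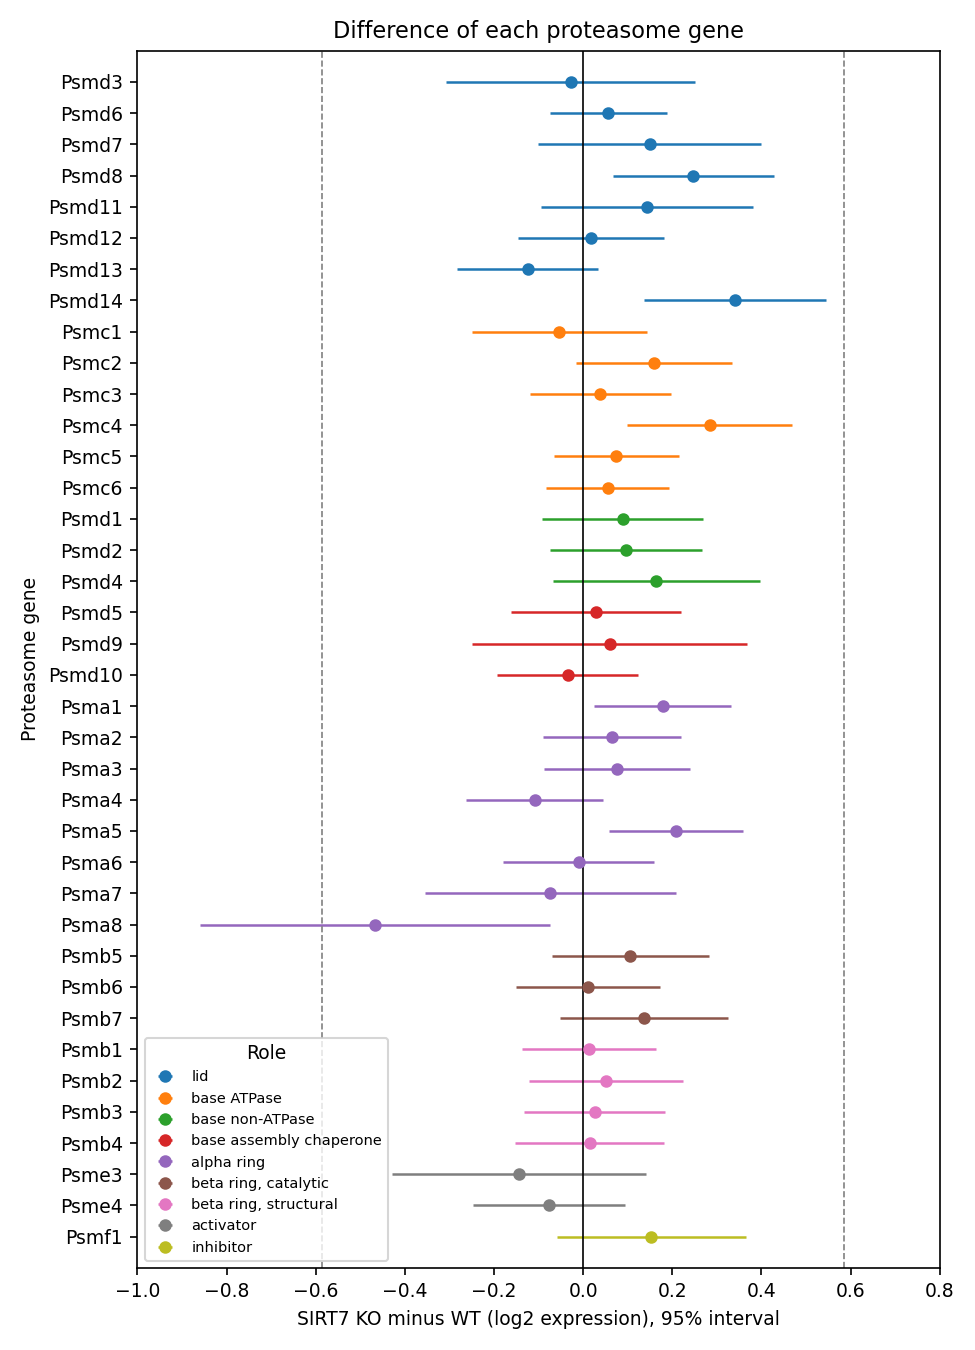
SIRT7 KO minus WT difference in log2 expression (horizontal axis) for each of the 38 proteasome genes (vertical axis), coloured by role. Points are the difference and bars the 95% interval of the limma fit; 28 points lie above 0, and Psmd14 (0.34) and Psma8 (-0.47) are the extremes.

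In the lid, Psmd14 showed the highest difference of the 38 genes. Psmd14 had values of 10.97, 10.94, 10.76 and 10.77 on the SIRT7 KO arrays and 10.56, 10.49, 10.68 and 10.33 on the WT arrays. Every SIRT7 KO array was above every WT array, and the smallest gap was between SIRT7 KO array 3 and WT array 3. The difference was 0.34 ± 0.091 (SE, n = 4 each), a 1.27-fold change with a 95% interval of 0.14 to 0.55 on the log2 scale and an adjusted p of 0.129 by limma. The call was kept without WT array 3 and lost without any one of the other arrays (adjusted p from 0.114 to 0.264 over the 8 fits, differences from 0.28 to 0.40).

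Psmd8, a further lid subunit, fell outside the rule for named genes and was singled out after its values were seen. Psmd8 had values of 11.50, 11.27, 11.32 and 11.24 on the SIRT7 KO arrays and 11.09, 10.96, 11.15 and 11.15 on the WT arrays. The groups did not overlap, and the difference of 0.25 ± 0.080 did not pass the test (adjusted p = 0.193 by limma). The remaining lid genes gave differences between -0.12 (Psmd13, adjusted p = 0.465 by limma) and 0.15 (Psmd7, the inactive partner of Psmd14 in the lid). Of the 8 lid genes 6 had a difference above 0, and their median was 0.10.

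Among the 6 ATPases of the base, Psmc4 had the smallest p. Psmc4 had values of 11.07, 11.30, 11.07 and 11.23 on the SIRT7 KO arrays and 10.77, 11.02, 10.88 and 10.87 on the WT arrays. The highest WT array (WT array 2) was just below the lowest SIRT7 KO array (SIRT7 KO array 3). The difference was 0.28 ± 0.082 and lay just outside the threshold (adjusted p = 0.154 by limma). A further probe set of Psmc4 gave 0.15 (adjusted p = 0.458 by limma). The 6 ATPase genes had a median of 0.065, and Psmc1 (-0.053) was the one with a difference below 0. Psmc2 is represented by a probe set whose probes may match further transcripts, as are Psma6, Psmd11 and Psme4. The other probe set of Psmc2 gave 0.087.

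Promoter sequences from RefSeq (GRCm38.p6), each with 250 bases before and 50 after the start of the gene, were matched to 31 of the 38 genes by symbol. They are shown for Psmd14, the called gene, and for Psmc4, the next gene by p, as the regions through which transcription factors act on these genes. Psmd14 lies at chr2:61711444-61711743 on the plus strand, and Psmc4 at chr7:28050043-28050342 on the minus strand. The CCAAT box, which is bound by NF-Y, is in capitals on whichever strand it was read. Psmd14 held 3 matches, and the last pair of them overlap on opposite strands just after the start. Psmc4 held no match, nor one to the antioxidant response core or the cAMP response element.
Psmd14: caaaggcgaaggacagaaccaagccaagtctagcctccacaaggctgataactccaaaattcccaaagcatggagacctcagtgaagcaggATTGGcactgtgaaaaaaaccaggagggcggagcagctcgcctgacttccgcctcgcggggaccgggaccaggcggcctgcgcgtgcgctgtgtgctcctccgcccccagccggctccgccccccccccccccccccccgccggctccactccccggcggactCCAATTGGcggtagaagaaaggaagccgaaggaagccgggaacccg
Psmc4: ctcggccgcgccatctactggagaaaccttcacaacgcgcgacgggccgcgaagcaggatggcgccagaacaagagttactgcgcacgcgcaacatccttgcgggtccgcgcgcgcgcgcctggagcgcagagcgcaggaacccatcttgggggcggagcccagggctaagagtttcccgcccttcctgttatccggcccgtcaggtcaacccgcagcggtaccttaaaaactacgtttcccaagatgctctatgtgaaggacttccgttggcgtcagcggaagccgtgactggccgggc

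The other genes of the base were Psmd1 and Psmd2, the large scaffold subunits, and Psmd4, a receptor for ubiquitin chains. Psmd4 had values of 11.48, 11.36, 11.24 and 11.10 on the SIRT7 KO arrays and 11.17, 11.21, 11.23 and 10.91 on the WT arrays. The groups overlapped, with SIRT7 KO array 4 below 3 of the WT arrays. The difference of Psmd4 was 0.16 ± 0.10 (adjusted p = 0.523 by limma), and its other probe sets gave 0.19 and 0.14. The differences of Psmd1 and Psmd2 were 0.088 and 0.096. Over the lid and base as a whole, 14 of 17 genes had a difference above 0, with a median of 0.088 and 1 call.

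**Figure D2:**
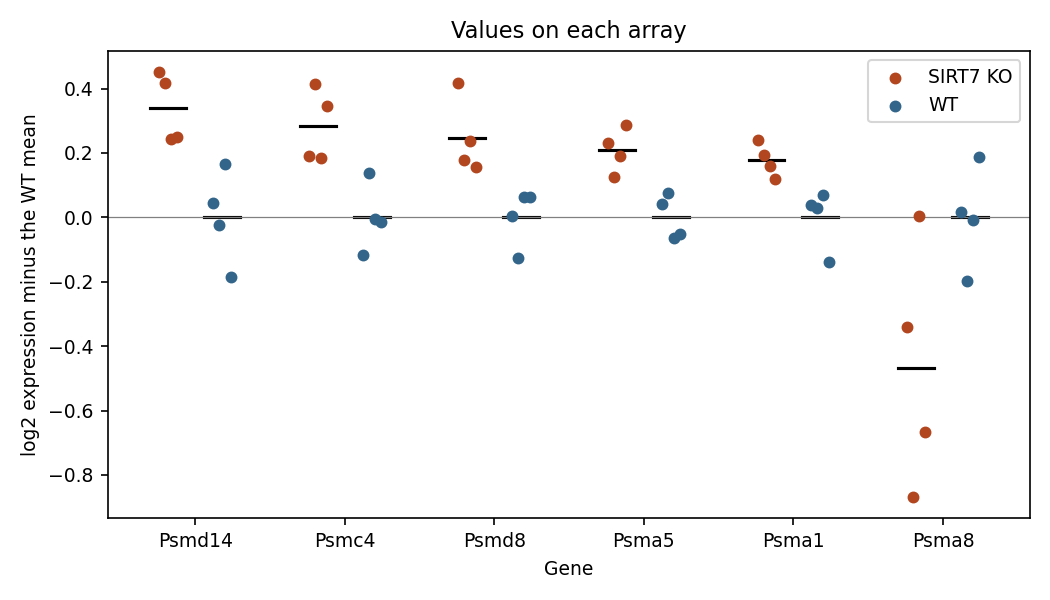
Log2 expression minus the WT mean (vertical axis) on each array for the 5 proteasome genes whose groups did not overlap and for Psma8 (horizontal axis). Points are the arrays, SIRT7 KO to the left of WT for each gene, and the SIRT7 KO points of the 5 genes sit above all their WT points while those of Psma8 overlap.

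The α ring forms the gate of the core particle. Psma5 had values of 11.93, 11.83, 11.89 and 11.99 on the SIRT7 KO arrays and 11.74, 11.78, 11.64 and 11.65 on the WT arrays, with no overlap. The difference was 0.21 ± 0.067 (adjusted p = 0.187 by limma). A further bright probe set of Psma5 gave 0.16 (adjusted p = 0.481 by limma) and a dim one 0.19 (adjusted p = 0.515 by limma). Psma1, singled out after its values were seen, had 11.41, 11.37, 11.33 and 11.29 on the SIRT7 KO arrays and 11.21, 11.20, 11.24 and 11.04 on the WT arrays. Its groups did not overlap either, and the difference was 0.18 ± 0.069 (adjusted p = 0.269 by limma). Psma4 (-0.11), Psma6 (-0.011) and Psma7 (-0.074) had differences below 0, so that 4 of the 8 α genes were on each side.

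Psma8 is a paralogue of Psma7 that is known from the testis. Its values were 5.58, 5.05, 5.92 and 5.25 on the SIRT7 KO arrays and 5.94, 5.72, 5.91 and 6.11 on the WT arrays. SIRT7 KO array 3 lay within the WT range, and the other SIRT7 KO arrays were below it. The difference was -0.47 ± 0.174, with a 95% interval of -0.86 to -0.075 and an adjusted p of 0.251 by limma. Psma8 was the only one of the 38 genes whose probe set, with a mean of 5.69, was dimmer than the median probe set, and no detection call was used here. Without SIRT7 KO array 3 Psma8 was called lower, and it was then the only proteasome gene called.

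The 3 catalytic β subunits of the core particle had differences above 0, and none passed the test. Psmb5, the chymotrypsin-like subunit, had values of 11.35, 11.44, 11.28 and 11.30 on the SIRT7 KO arrays and 11.24, 11.09, 11.22 and 11.39 on the WT arrays. Its difference was 0.11 ± 0.079 (95% interval -0.071 to 0.28, adjusted p = 0.591 by limma). WT array 4 was above 3 of the SIRT7 KO arrays.

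Psmb6, the caspase-like subunit, had 11.63, 11.48, 11.42 and 11.48 on the SIRT7 KO arrays and 11.40, 11.50, 11.48 and 11.59 on the WT arrays. Its difference of 0.011 ± 0.072 (95% interval -0.15 to 0.17, adjusted p = 0.965 by limma) took the opposite sign without SIRT7 KO array 1 (-0.031) or without WT array 1 (-0.020). The interval thus allows for changes of either sign. Psmb7, the trypsin-like subunit, had 10.01, 9.69, 9.85 and 9.79 on the SIRT7 KO arrays and 9.69, 9.59, 9.72 and 9.80 on the WT arrays. Its difference was 0.14 ± 0.084 (95% interval -0.052 to 0.32, adjusted p = 0.510 by limma).

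The 4 structural β genes had differences between 0.013 and 0.051 by their brightest probe sets. Psmb2 led them, with values of 11.07, 10.90, 10.90 and 10.89 on the SIRT7 KO arrays and 10.87, 10.91, 11.02 and 10.77 on the WT arrays. SIRT7 KO array 1 alone was above all WT arrays, and the difference was 0.051 (adjusted p = 0.819 by limma). Psmb4 gave 0.014 by its brightest probe set. A further bright probe set of Psmb4, whose probes may match further transcripts, gave 0.20 (adjusted p = 0.298 by limma). The core particle without Psma8 thus had 11 of 14 genes above 0, a median of 0.039 and no call. No test was made of the core particle against the regulatory particle.

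The genes that help assemble the base or act on the assembled particle did not pass the test. Psmd9, an assembly chaperone, had 9.26, 9.10, 8.70 and 8.65 on the SIRT7 KO arrays and 8.94, 8.73, 8.89 and 8.91 on the WT arrays. SIRT7 KO arrays 1 and 2 were above all WT arrays and SIRT7 KO arrays 3 and 4 below all of them. The difference was 0.059 ± 0.137 (adjusted p = 0.887 by limma). Psmd10 (gankyrin), a further chaperone of the base, had 8.46, 8.43, 8.35 and 8.44 on the SIRT7 KO arrays and 8.45, 8.59, 8.43 and 8.35 on the WT arrays. The groups overlapped, with WT array 2 the highest, and the difference was -0.035 (adjusted p = 0.869 by limma).

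Psme3, the nuclear activator that opens the core without ATP, had 8.27, 8.18, 7.76 and 7.75 on the SIRT7 KO arrays and 8.21, 8.04, 8.20 and 8.09 on the WT arrays. As for Psmd9, SIRT7 KO arrays 3 and 4 were below the WT range and SIRT7 KO array 1 was above it. The difference was -0.14 ± 0.127 (adjusted p = 0.666 by limma). Psmf1, the gene of an inhibitor of the core, had 8.20, 7.90, 7.94 and 8.02 on the SIRT7 KO arrays and 7.81, 7.70, 8.02 and 7.93 on the WT arrays. The groups overlapped, and the difference was 0.15 ± 0.094 (adjusted p = 0.510 by limma). A dim probe set of Psmf1 gave -0.17 (adjusted p = 0.305 by limma), with its SIRT7 KO values wholly below its WT values. Psme4, the gene of a further activator, gave -0.077.

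Several probe sets of 1 gene gave a further reading of the same transcripts. Of the 74 probe sets 56 had a difference above 0 and 1 was called, against 4.31% of all probe sets tested. There were 13 genes with more than 1 probe set above the median brightness, and in 11 of them all such probe sets had the same sign. The exceptions were Psma6 (-0.011 and 0.057) and Psme4 (-0.077, 0.0016 and 0.031).

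Within a genotype, the same arrays were high or low for many of the proteasome genes. SIRT7 KO array 1 was the highest of its genotype for 26 of the 38 genes (68.4%), against 30.4% of genes above the median brightness, and the lowest for 1. SIRT7 KO array 3 was the lowest for 16 genes (42.1%, against 28%) and SIRT7 KO array 4 for 14 (36.8%, against 27.9%). Among the WT arrays, array 4 was the lowest for 20 genes (52.6%, against 35.5%) and array 3 the highest for 18 (47.4%, against 25.3%).

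The median deviation of the 38 genes from their own means was 0.12, 0.052, -0.020 and -0.016 on SIRT7 KO arrays 1 to 4 and -0.016, -0.0071, 0.022 and -0.084 on WT arrays 1 to 4. SIRT7 KO array 1 and WT array 4 were the ends of this range. Over genes above the median brightness the medians of the same deviation lay between -0.028 and 0.023. Without WT array 4 and SIRT7 KO arrays 3 and 4, which stood apart on the principal components, the median difference of the proteasome genes was 0.086 and no gene was called. This choice kept SIRT7 KO array 1, and leaving out that array alone gave a median of 0.019.

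Other measures also varied between these arrays. SIRT7 KO array 1 had the lowest GAPDH 3′ minus 5′ difference (-0.016, against 0.14 to 0.29 on the other arrays) and the lowest spike-in mean (8.39, against 8.51 to 8.76 elsewhere). The mean of the 8 macrophage marker genes was 9.25, 9.19, 10.07 and 9.80 on the SIRT7 KO arrays and 9.01, 9.92, 9.27 and 8.91 on the WT arrays. It was thus higher on the SIRT7 KO arrays 3 and 4, on which proteasome genes were low for their genotype, than on SIRT7 KO arrays 1 and 2, whereas in the WT group array 4 was the lowest in both. Of these 8 markers 0 were called and 8 had a difference above 0. In whole liver, fewer cells of a type and less RNA per cell cannot be told apart. The part of macrophage content in the levels of the proteasome genes was not tested.

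**Figure D3:**
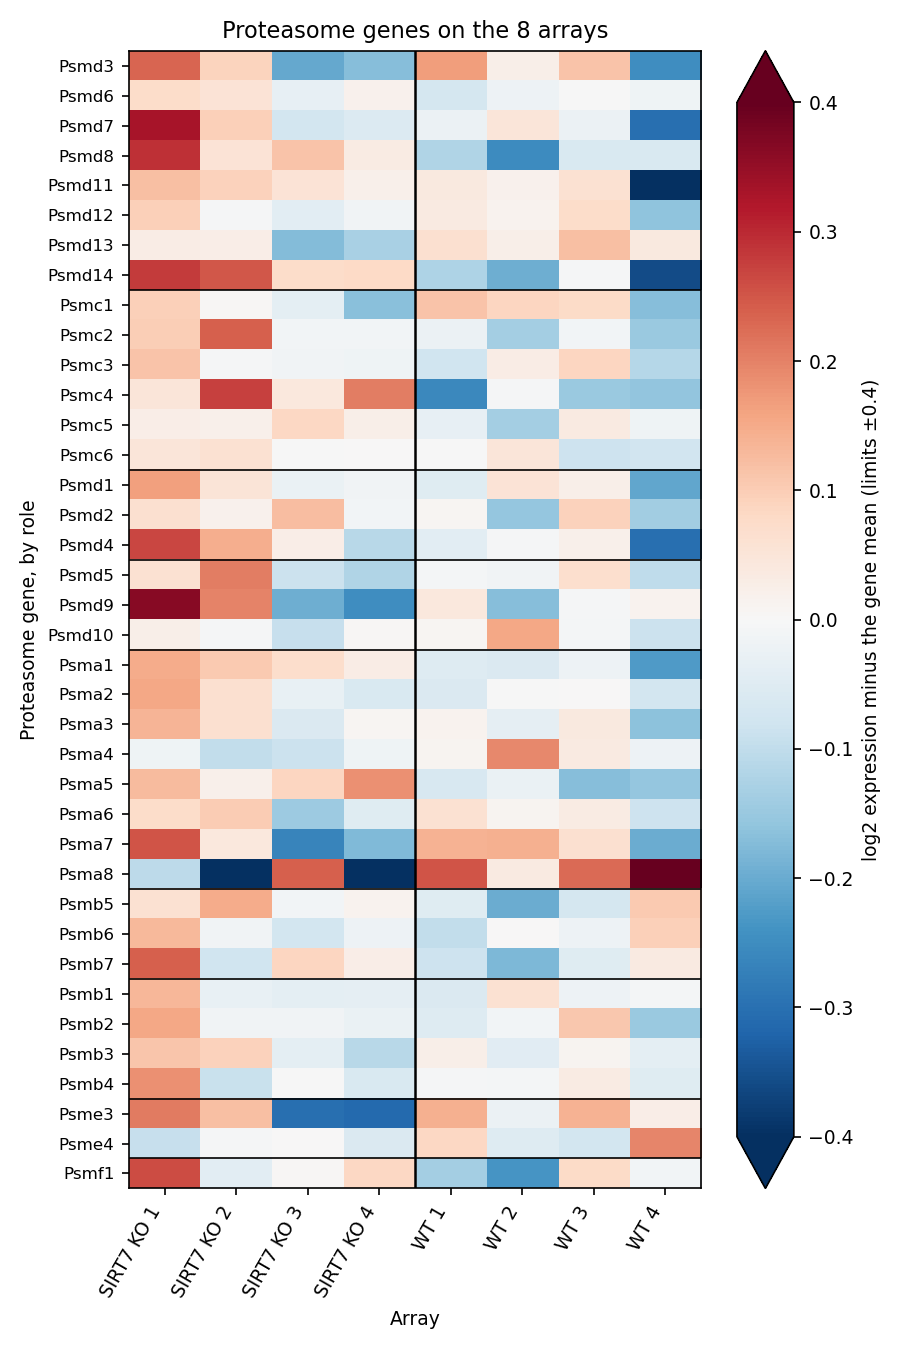
Log2 expression minus the mean of the gene (colour, limits ±0.4) for the 38 proteasome genes (rows, by role) on the 4 SIRT7 KO arrays and then the 4 WT arrays (columns). SIRT7 KO array 1 is high (median 0.12) and WT array 4 low (median -0.084) across most roles.

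**Figure D4:**
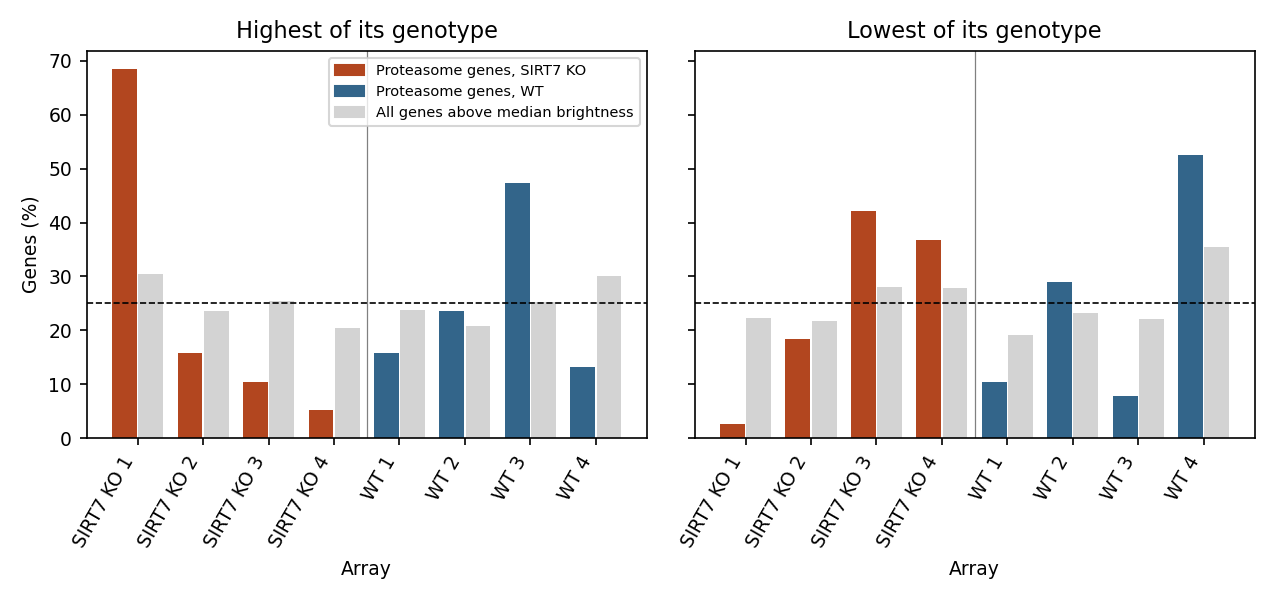
Percentage of genes (vertical axis) for which each array (horizontal axis) was the highest or the lowest of the 4 arrays of its genotype, for the 38 proteasome genes and, in grey, for all genes above the median brightness. The dashed line at 25% is an even share; SIRT7 KO array 1 was highest for 68.4% and WT array 4 lowest for 52.6% of the proteasome genes.

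The immunoproteasome genes, which are induced by interferon and replace the catalytic β subunits, were set beside their constitutive counterparts. Psmb9, the counterpart of Psmb6, had 9.25, 9.10, 9.60 and 9.48 on the SIRT7 KO arrays and 8.65, 8.84, 8.73 and 8.41 on the WT arrays. Psmb9 rose by 0.70 ± 0.128 (1.62-fold, adjusted p = 0.0495 by limma), and its groups did not overlap. Psmb6 gave 0.011. Psmb8 gave 0.31 (adjusted p = 0.379 by limma), beside 0.11 for its counterpart Psmb5, and Psmb10 gave -0.11 (adjusted p = 0.726 by limma), beside 0.14 for its counterpart Psmb7. The pairs were set side by side with these values known, so no test of the gap within a pair is given. Psme1 gave 0.071 (adjusted p = 0.730 by limma). SIRT7 KO arrays 3 and 4 had the highest levels of Psmb9 and Psmb8 in their genotype, and these arrays also had the higher macrophage marker means. WT array 2 had the highest macrophage mean (9.92) and the highest Psmb9 (8.84) of the WT arrays. SIRT7 KO arrays 1 and 2, with macrophage means of 9.25 and 9.19, had Psmb9 of 9.25 and 9.10. The part of macrophage content in the levels of these genes was not tested.

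**Figure D5:**
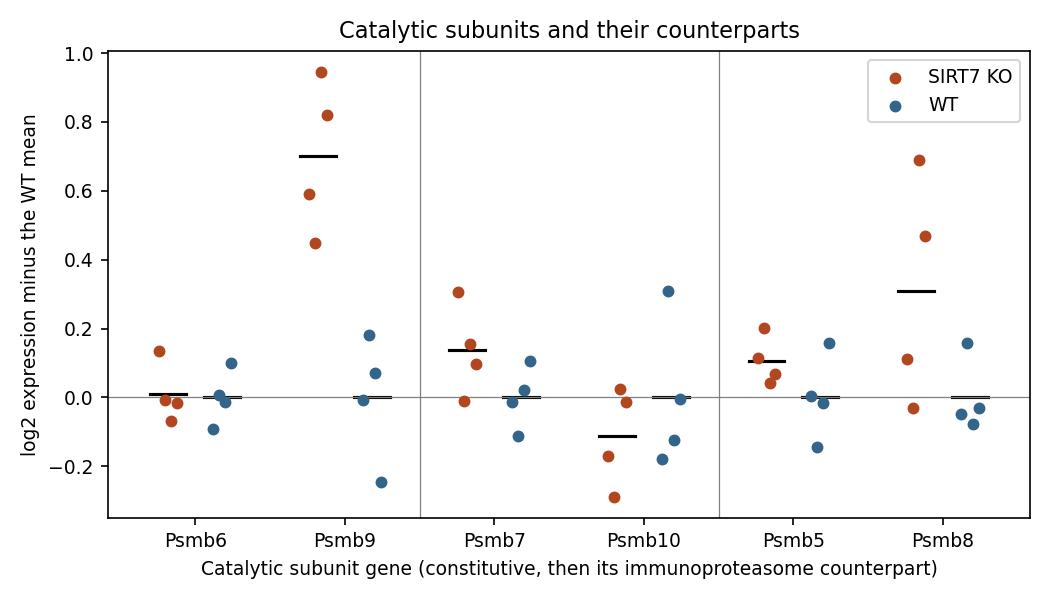
Log2 expression minus the WT mean (vertical axis) for the catalytic subunit genes Psmb5, Psmb6 and Psmb7 and their immunoproteasome counterparts Psmb8, Psmb9 and Psmb10 (horizontal axis), SIRT7 KO to the left of WT for each gene. Points are the arrays, and Psmb9 is the one of the 6 genes whose groups did not overlap (difference 0.70).

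The wider ubiquitin and proteasome pathway was covered by 57 further genes in 6 lists. Of these 57 genes, 1 was called higher and 1 lower, against 2.17% and 2.48% of all genes, and their median difference was -0.031. The list of NFE2L1 and the factors that process or partner it held the call that was higher, Mafk, the gene of a small MAF protein that pairs with NFE2L1 and NFE2L2 on DNA. Mafk had 7.07, 7.19, 7.27 and 7.30 on the SIRT7 KO arrays and 6.76, 6.77, 6.78 and 6.95 on the WT arrays. The groups did not overlap, and Mafk rose by 0.39 ± 0.078 (adjusted p = 0.0641 by limma), a call that was lost without SIRT7 KO array 4 (adjusted p = 0.162) or WT array 1 (adjusted p = 0.178). Nfe2l1 itself gave -0.0043 (95% interval -0.22 to 0.21, adjusted p = 0.990 by limma) and Nfe2l2 gave 0.30 (adjusted p = 0.442 by limma). Of the 10 genes of this list 8 had a difference above 0, with a median of 0.056.

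Ubr2, a ubiquitin ligase of the N-degron pathway, was the gene called lower. Ubr2 had 6.58, 6.51, 6.44 and 6.67 on the SIRT7 KO arrays and 6.88, 6.87, 6.98 and 7.07 on the WT arrays. The groups did not overlap, and Ubr2 fell by 0.40 ± 0.077 on the log2 scale (adjusted p = 0.0580 by limma), a call kept in the 8 fits that left out 1 array each. Of the 9 ligase genes 2 had a difference above 0, and the median was -0.15.

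None of the 17 genes of ER-associated degradation, which brings misfolded ER proteins to the proteasome, was called, and 13 had a difference below 0, with a median of -0.11. All 17 were above the median brightness. Their differences ran from -0.51 (Herpud1, adjusted p = 0.287 by limma) to 0.16 (Derl1, adjusted p = 0.377 by limma). At an unadjusted p under 0.05, 6 of these 17 genes were lower, against 8.72% of all genes and 930 of the 6923 genes above the median brightness. In 5 of the 17, namely Selenos, Edem1, Ube2j2, Erlec1 and Sel1l, the SIRT7 KO values lay wholly below the WT values. This was 29.4% of the list, against 5.70% of all genes and 9.11% of genes above the median brightness. Selenos, a membrane subunit of the retrotranslocation machinery, had the smallest p, with a difference of -0.25 (adjusted p = 0.153 by limma), just outside the threshold. This count of 0 depended on the settings, as 2 genes (Selenos and Edem1) were called with trend and robust variance, 3 (with Ube2j2) with array weights and 5 (with Erlec1 and Sel1l) with bright probe sets only. The share of all genes called in these settings was 4.66%, 6.31% and 12.2%, in that order, against 4.65% in the main fit. Selenos had 11.45, 11.47, 11.59 and 11.51 on the SIRT7 KO arrays and 11.74, 11.75, 11.63 and 11.88 on the WT arrays.

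The other 3 lists held no call. The 5 core assembly genes had a median of 0.032, and Psmg1, an assembly chaperone, had the smallest p (-0.10, adjusted p = 0.558 by limma). The 7 genes of proteins that bind the proteasome had a median of -0.060, and the deubiquitylating enzyme Usp14 had the smallest p (0.19, adjusted p = 0.278 by limma). The 9 genes of shuttle factors and ubiquitin-conjugating enzymes had a median of 0.091. Ubqln2, a shuttle factor, had the smallest p (0.22, adjusted p = 0.221 by limma).

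The same promoters were searched on both strands for TGACNNNGC (the core of the antioxidant response element, bound by NFE2L1 or NFE2L2 with a small MAF protein), CCAAT and TGACGTCA (the cAMP response element). CCAAT was found in 12 of 31 proteasome genes (38.7%), against 41.1% of all genes and 37.4% of all 32851 promoters. TGACGTCA was found in 0 of 31, against 2.03% of all genes and 1.79% of all promoters. TGACNNNGC was found in 6 of 31 genes (19.4%), against 14% of all genes and 12.4% of all promoters. A match is a description of the sequence, not evidence of binding.

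The matches to TGACNNNGC are shown with up to 10 bases on each side, with the match in capitals as it reads on the strand of the gene, to set the element beside the expression of its gene. The windows are chr14:54618024-54618052 (minus strand) for Psmb5, chr11:70525338-70525366 for Psmb6, chr14:45329587-45329615 for Psmc6, chr11:107479278-107479299 for Psmd12, chr5:123228149-123228177 for Psmd9 and chr11:30771758-30771786 for Psme4, all of the last 5 on the plus strand.
Psmb5: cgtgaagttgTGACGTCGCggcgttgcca
Psmb6: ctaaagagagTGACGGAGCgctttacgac
Psmc6: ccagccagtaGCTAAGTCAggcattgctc
Psmd12: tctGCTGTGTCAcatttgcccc
Psmd9: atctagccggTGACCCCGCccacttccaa
Psme4: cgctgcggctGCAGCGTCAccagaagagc

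The match lay 47 bases before the start of the gene in Psmb5, 31 in Psmd9, 9 in Psmb6 and 7 in Psme4, and 227 and 247 bases before it in Psmc6 and Psmd12. The expression differences of these 6 genes were between -0.077 and 0.11, with a median of 0.036, and none was called. The 25 genes with a promoter but without the element had a median of 0.074, and Psmd14 was the 1 gene called.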

How the data were processed

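Liver RNA of 4 SIRT7 KO and 4 WT mice was measured on Affymetrix arrays, grouped by the labels. The authors deposited log2 expression values, 1 for each probe set and array. The methods of the study name RMA and the submitters' processing notes GCRMA, so it is unknown which one made the values. Their versions were not given in these sources. GCRMA and RMA differ most for dim probe sets. The table held 22690 probe sets. The 64 controls were left out, and 22626 were tested, of which 20380 had a single symbol in the platform annotation, 691 several and 1555 none.

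Genotype was fitted with limma (version 3.58.1, R 4.3.3; lmFit and eBayes), with two-sided tests, Benjamini-Hochberg adjustment over all probe sets and a threshold of 0.15. The fit was tested on simulated data. Intervals are 95% intervals of the moderated fit. The labels describe each sample as a mouse of its genotype. Litters and batches are not given for each array, so a p-value reflects only the spread among these arrays. Their number limits the precision.

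Named genes were called members, the catalytic subunits, the members with the smallest p and the largest difference in each role, and called genes and the smallest p in each pathway list. Psmd8 and Psma1 were added after their values were seen. The members and lists were chosen with earlier results of these data known. Alternatives were a threshold of 0.05, trend and robust variance, array weights, quantile normalization, median centring, a brightness filter, other choices of probe set, leaving out arrays and a replicate block. Same-numbered arrays did not deviate together (r between -0.25 and 0.26), so the numbers were not taken as pairs.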

Additional observations from a re-analysis of the deposited data

Results flagged for a closer look

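In each genotype, the highest and lowest arrays of the 38 proteasome genes were compared with the rest of the group. Of the 76 groups tested, 6 held an array far from the other 3, and chance flags about 5% of groups. Of these 6, 3 were SIRT7 KO array 1 and 2 were WT array 4. Psmb1 was at 11.72 on SIRT7 KO array 1, against 11.55 on the next SIRT7 KO array. Psmb2 was at 11.07 on SIRT7 KO array 1 and at 10.90 on the next. Psmc3 was at 11.08 on SIRT7 KO array 1 and at 10.96 on the next. Psmc5 was at 10.26 on SIRT7 KO array 3 and at 10.21 on the next. Psmc1 was lowest on WT array 4 at 10.28, with the next WT array at 10.53. Psmd11 was lowest on WT array 4 at 11.84, with the next WT array at 12.26. The difference of Psmd11 between SIRT7 KO and WT was 0.14 with all arrays and 0.033 without WT array 4, and that of Psmb1 was 0.013 with all arrays and -0.029 without SIRT7 KO array 1.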

How the results depend on the processing

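Across the array 975 probe sets were called; there were 156 at an adjusted p under 0.05, 628 with the replicate block and from 222 (without WT array 1) to 900 (without WT array 4) when 1 array was left out. Of the proteasome genes 1 was called (Psmd14), and 0 were at an adjusted p under 0.05, with the replicate block, and without WT array 4 and SIRT7 KO arrays 3 and 4. There were 2 (Psmc4 and Psmd14) with trend and robust variance, with array weights, with 1 probe set per gene and with the mean of all probe sets of a gene. In these settings 4.66%, 6.31%, 5.11% and 5.31% of all genes were called, in that order. The proteasome genes called were 4 (Psma5, Psmc4, Psmd14 and Psmd8) with bright probe sets only, a setting in which 12.2% of genes were called. They numbered 0 to 1 when 1 array was left out, with 1.07% (without WT array 1) to 4.24% (without WT array 4) of all genes called. The setting of bright probe sets kept those whose higher genotype mean was above the median brightness. It thus used the genotype, unlike the brightness over all arrays used elsewhere. Of the pathway genes 2 were called, and 1 to 3 when 1 array was left out. In settings added for these genes after seeing the data, there were 0 at an adjusted p under 0.05, 4 with trend and robust variance, 5 with array weights, 8 with bright probe sets only, 4 with 1 probe set per gene, 5 with the mean of all probe sets and 1 (Edem1) without WT array 4 and SIRT7 KO arrays 3 and 4. Genes of ER-associated degradation made up 2, 3, 5, 2, 2 and 1 of the last 6 of these counts. The share of all genes called in these added settings was 0.758%, 4.66%, 6.31%, 12.2%, 5.11%, 5.31% and 2.70%, in the same order. The median difference of the proteasome genes stayed above 0 in the settings run (0.019 to 0.086), and 27 of the 38 genes kept their sign in the 8 fits without 1 array, 21 above and 6 below 0. Psmb6 (-0.031 to 0.044), Psmd9 (-0.052 to 0.15) and Psmd10 (-0.070 to 0.011) changed sign when 1 array was left out; the cause was not tested.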

Other observations

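Marker genes of the other cell types of the liver gave 3 calls by limma, in lists of 6, 6 and 5 genes. Of all genes 4.65% were called in either direction. Lyve1, a receptor of sinusoidal endothelial cells, averaged 8.27 ± 0.075 on the SIRT7 KO arrays and 7.06 ± 0.498 on the WT arrays (SD, n = 4 each; difference 1.21, adjusted p = 0.0463 by limma). The other 5 endothelial genes were not called and gave differences from -0.13 to 0.15. Of 6 stellate cell genes 5 had a difference above 0 and 1 was called, Dcn, a matrix proteoglycan (0.41, adjusted p = 0.103 by limma). Rgs5 had the largest difference of the 6 (0.62, adjusted p = 0.163 by limma), while Reln was at -0.20 (adjusted p = 0.332 by limma). Of 5 T and NK cell genes, all from probe sets dimmer than the median, 2 had a difference above 0 (Cd8a, 0.13, and Cd2, 0.039) and 1 was called, Cd3g, which was lower (-0.39, adjusted p = 0.137 by limma). The mean of 4 neutrophil genes was 5.54, 5.19, 5.99 and 8.55 on the SIRT7 KO arrays and 5.40, 9.28, 8.61 and 5.37 on the WT arrays, so that SIRT7 KO array 4 and WT arrays 2 and 3 were high.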
